A study of Arabidopsis thaliana with 12 samples.

Results

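The probe sets described here were chosen for mean levels that differed with the pmr6 mutation and differed little with the pmr5 mutation. The choice used the same arrays of Arabidopsis thaliana rosettes that are described here. Of the 22810 rows of the deposited table, 150 were members, 75 higher and 75 lower in the genotypes that carry pmr6. The 12 arrays comprised 4 genotypes with 3 arrays of each, which were wild-type plants of accession Col-0, pmr5, pmr6 and the combination pmr5 pmr6, the double mutant. All plants were untreated, 3 weeks old and kept under a 14 h photoperiod at 22 °C, and biotin-labelled RNA made from 15 µg of total RNA was put on ATH1 arrays of Affymetrix, where a probe set is a group of short oligonucleotides designed against a transcript. The labels name no alleles of pmr5 or pmr6 and do not say how many plants were pooled, so the spread between arrays is that between the samples labelled as biological replicates.

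The pmr mutants of Arabidopsis were isolated for resistance to powdery mildew, a biotrophic fungus that feeds through the walls of living epidermal cells. PMR6 encodes a pectate lyase-like protein with a membrane anchor, and pectate lyases cleave the homogalacturonan backbone of pectin. PMR5 belongs to a plant family of wall polysaccharide acetyltransferases, and both mutants are known for leaf walls enriched in pectin. A double mutant beside both single mutants shows the effect of pmr6 in the presence and in the absence of functional PMR5.

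The members were chosen from the 4 genotype means themselves. Levels are log2(intensity + 28), so differences and folds are on that scale and understate those of dim probe sets. Among 13659 rows with a mean intensity of at least 100 over the 12 arrays, 7560 had a pmr5 minus Col-0 difference and a pmr5 pmr6 minus pmr6 difference that both lay under 0.25 in size. These rows were ranked by the smaller of their pmr6 differences, pmr6 minus Col-0 and pmr5 pmr6 minus pmr5, and the 75 at each end were kept. The rule used every genotype mean, so the genotype differences of the members are a description and carry no test.

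No gene can be named. The identifiers in the deposited table are not in the order of the values. The platform annotation gives 179 row pairs a common gene, and across these pairs the mean levels correlated at only r = 0.06, with rows and not samples as the points. Moving the identifiers by any number of rows from -200 to 200 raised this to at most 0.42, with 0.41 at another displacement, and a displacement by 64 rows, the number of control identifiers, gave 0.16. The first 9 rows, under identifiers of plant transcripts, correlated with each other at a mean of 0.94. Members are therefore called by direction, rank and row of the table, counted from 1, and for the same reason the rosette could not be checked against marker genes or the mutants against their own transcripts. No member lay in the first 64 rows, and 0 of the 64 rows with control identifiers would have qualified.

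The instrument records place the arrays in 3 hybridization runs, each of which held every genotype once and is given by the replicate number. The fluidics station had 4 modules, and each genotype always used its own: module 1 was that of Col-0, module 2 that of pmr5, module 3 that of pmr6 and module 4 that of the double mutant. The contrast that defines the members, modules 3 and 4 against modules 1 and 2, is thus also that of pmr6 against functional PMR6, and the 2 cannot be told apart. Median intensities ran from 168 to 190, and pmr5 replicate 1 and pmr5 pmr6 replicate 3 stood apart by a raised dim end, with a 5th percentile of intensity of 9.6 and 9.2, where the remaining arrays had 3 to 5.

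The differences were modest. Among the 75 higher members the pmr6 minus Col-0 difference had a median of 0.34 on the log2 scale, or 1.26-fold, and ran from 0.26 to 0.98. Arrays of whole rosettes measure bulk RNA, in which fewer cells of a type and less RNA per cell cannot be told apart. In the pmr5 background the pmr5 pmr6 minus pmr5 difference of the same probe sets had a median of 0.37, or 1.29-fold, and ran from 0.26 to 0.84. No member reached a difference of 2-fold in either background, and 10 higher members stood at least 0.5 log2 higher in both. The rule ranks by the difference smaller in size, so these 10 are all such rows of the 7560 past both limits. The count is fixed by the ranking.

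Among the 75 lower members the corresponding medians were -0.38 and -0.40 on the log2 scale, or 1.30-fold and 1.32-fold lower. The largest differences were -0.62 against Col-0 and -0.66 against pmr5, and 6 members stood at least 0.5 log2 lower in both backgrounds. By the ranking these 6 are again all such rows past both limits. Over all 7560 rows past both limits the same medians were -0.02 and -0.02. In the plot of both pmr6 differences the members are the 2 ends of one cloud and are not set apart from it by a gap.

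**Figure D1:**
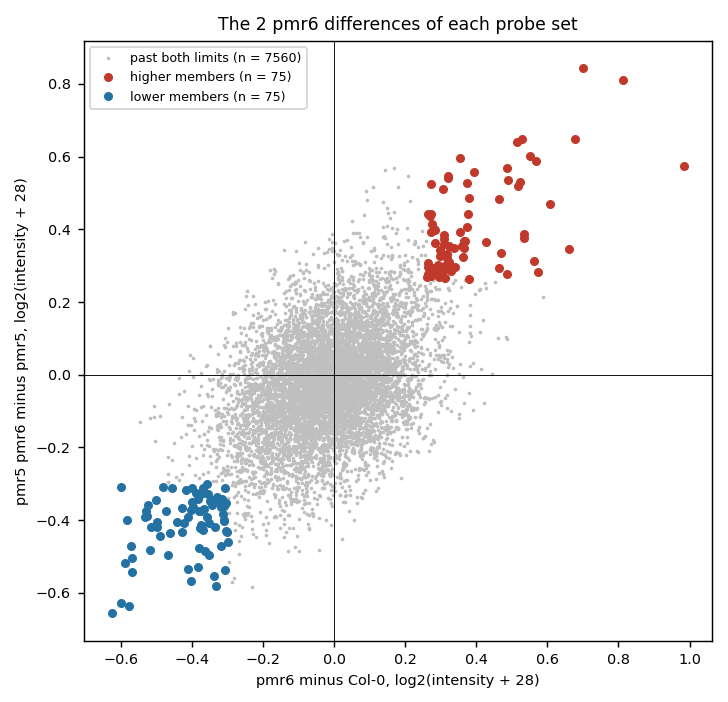
Each point is a probe set, placed by its pmr6 minus Col-0 difference (x axis) and its pmr5 pmr6 minus pmr5 difference (y axis), both in log2(intensity + 28). Grey points are the 7560 rows past both limits, red points the 75 higher and blue points the 75 lower members. The members continue the edge of the grey cloud, and the highest stand at up to 0.98 and 0.84.

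The edges of the rule cut through closely spaced values. The score is the pmr6 difference that is smaller in size. It was 0.262, 0.262 and 0.263 for the 3 higher members nearest the edge and 0.261, 0.261 and 0.259 for the next 3 rows outside. On the lower side it was -0.299, -0.299 and -0.300 inside and -0.298, -0.297 and -0.296 outside. Rows with such a score that missed a limit on the pmr5 differences were more numerous than the members, at 480 on the higher side and 168 on the lower side, and a further 205 and 158 had too low an intensity.

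For the other limits the nearest members were as close. Higher members came up to a pmr5 minus Col-0 difference of 0.246, 0.246 and 0.244, and the nearest rows left out were at 0.252, 0.252 and 0.258. For pmr5 pmr6 minus pmr6 the values were 0.249, 0.246 and 0.236 inside and 0.253, 0.255 and 0.257 outside. On the lower side, pmr5 minus Col-0 came to 0.244, -0.242 and -0.236 inside and -0.259, -0.267 and -0.271 outside, and pmr5 pmr6 minus pmr6 to -0.249, -0.245 and -0.243 inside and -0.256, -0.258 and -0.270 outside.

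The intensity minimum fell among equally close values. The dimmest higher members had mean intensities of 101, 103 and 103 and the brightest rows left out 99, 96 and 94. The dimmest lower members stood at 101, 102 and 104 and the brightest rows left out at 99.6, 98 and 95.

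The top of the higher group held several bright probe sets whose arrays separated cleanly by pmr6. Higher member 2 (row 19832) had intensities of 1434, 1267 and 1677 in Col-0, 1445, 1769.9 and 1440.3 in pmr5, 2232.5, 2366 and 2526 in pmr6, and 2972, 2709.5 and 2710.1 in pmr5 pmr6. All 6 arrays with pmr6 lay above all 6 without it. The differences were 0.70 against Col-0 and 0.84 against pmr5 (SE 0.10 each), or 1.62-fold and 1.79-fold.

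Higher member 3 (row 15990) stood at 2449, 1996 and 2239 in Col-0, 2443, 2817 and 2300.0 in pmr5, 3387, 3496 and 3841 in pmr6, and 3906, 3825 and 4128 in pmr5 pmr6. Its groups with and without pmr6 did not overlap either. The differences were 0.68 and 0.65 (SE 0.09), or 1.60-fold and 1.57-fold.

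Higher member 5 (row 5707) was brighter still, at 4204, 4427 and 3200.1 in Col-0, 4255, 4875 and 4364 in pmr5, 5889, 6245 and 5322 in pmr6, and 6509, 6031 and 7883 in pmr5 pmr6. The lowest array with pmr6 lay above the highest without it. Its differences were 0.57 and 0.59 (SE 0.11), and the first was 0.43 without Col-0 replicate 3, the lowest of its 12 arrays.

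Higher member 4 (row 22402) had the largest difference of any member against Col-0. It stood at 598, 497 and 565 in Col-0, 558, 861 and 556 in pmr5, 1053, 1074 and 1236 in pmr6, and 1098, 1171 and 716 in pmr5 pmr6. One pmr5 array lay above one double-mutant array, pmr5 pmr6 replicate 3, so the groups overlapped. The differences were 0.98 against Col-0 and 0.57 against pmr5 (SE 0.16), or 1.98-fold and 1.49-fold.

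Higher member 1 (row 6091) led the ranking but was dim and variable. It stood at 94, 145 and 78 in Col-0, 49.7, 113 and 132 in pmr5, 169, 234 and 207 in pmr6, and 219, 221 and 125 in pmr5 pmr6. The double-mutant array at 125 lay below one Col-0 and one pmr5 array. Both differences were 0.81, with an SE of 0.27, the widest among the first 5 higher members. The difference against pmr5 was 0.49 without pmr5 replicate 1 and 1.04 without pmr5 pmr6 replicate 3.

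Among the remaining higher members of the first 10, members 8 and 9 (rows 3064 and 18591) separated by pmr6 and members 6, 7 and 10 (rows 15038, 3319 and 6501) overlapped. Higher member 8 ran from 404 to 516 over the 6 arrays without pmr6 and from 553 to 764 over the 6 arrays with it. Higher member 9 ran from 358.5, to 479 without pmr6 and from 503 to 737 with it. The differences of these 5 members lay between 0.52 and 0.65, with SEs from 0.12 to 0.27. For higher member 6 the difference against Col-0 was 0.33 without Col-0 replicate 3 and that against pmr5 was 0.33 without pmr5 replicate 2. For higher member 10 the difference against pmr5 was 0.37 without the pair of arrays with a raised dim end.

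**Figure D2:**
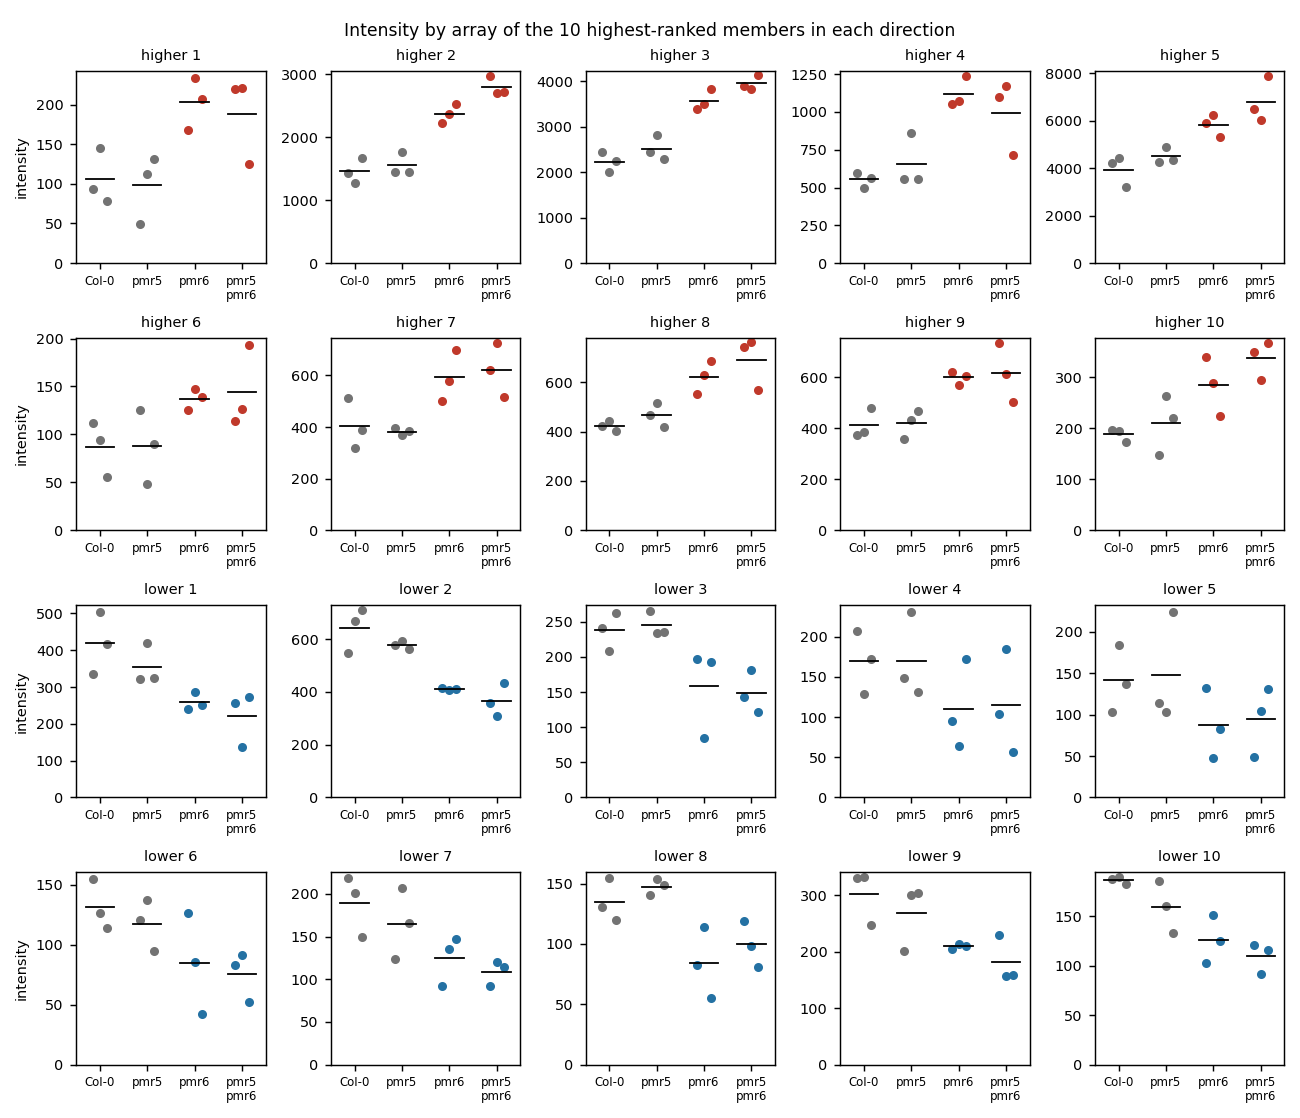
Intensity (linear, y axis from 0) of the 10 highest-ranked members in each direction on the 3 arrays of each genotype, with a bar at the mean. Grey points are arrays without pmr6, red and blue points arrays with it. Higher members 2, 3, 5, 8 and 9 and lower members 1, 2, 3 and 8 have all 6 arrays with pmr6 on one side of the other 6, and the other panels overlap.

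The lower group had no member as bright as the leading higher ones. Lower member 2 (row 22352) was the clearest of the first 10, at 546, 669 and 709 in Col-0, 578, 591 and 561 in pmr5, 416, 406 and 412 in pmr6, and 356, 308 and 435 in pmr5 pmr6. The highest array with pmr6 lay well below the lowest without it. The differences were -0.60 and -0.63 (SE 0.12), or 1.51-fold and 1.55-fold lower.

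Lower member 1 (row 12349) stood at 334, 505 and 418 in Col-0, 323, 419.7 and 324 in pmr5, 240.2, 287 and 249.9 in pmr6, and 256, 138 and 272 in pmr5 pmr6. The groups did not overlap, and pmr5 pmr6 replicate 2 was far below the other arrays with pmr6. Its differences were -0.62 and -0.66 (SE 0.19), and the second was -0.39 without that array.

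Lower member 3 (row 21611) stood at 242, 209 and 263 in Col-0, 265, 234 and 235 in pmr5, 197, 85 and 193 in pmr6, and 143, 181 and 122 in pmr5 pmr6. Every array with pmr6 was lower than every array without it, and pmr6 replicate 2 was the lowest. The differences were -0.58 and -0.64 (SE 0.22), and the first was -0.25 without that array. Lower member 8 (row 16101), the only other one of the first 10 without overlap, ran from 119.6 to 154.6 over the arrays without pmr6 and from 55 to 119.3 over those with it, so that its groups were separated by less than 1 intensity unit. Its difference against Col-0 was -0.57 and became -0.37 without pmr6 replicate 3, its lowest array.

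Lower members 4, 5, 6, 7, 9 and 10 (rows 5919, 18922, 17521, 14243, 3012 and 15302) overlapped between the groups, and 5 of these 6 had mean intensities between 102 and 147. Their differences lay between -0.59 and -0.44, with SEs from 0.18 to 0.32. Single arrays moved the values of the 3 dimmest of them. For lower member 4 the difference against Col-0 of -0.57 was -0.31 without pmr6 replicate 2 and -0.87 without pmr6 replicate 3. Its difference against pmr5 of -0.54 was -0.88 without pmr5 pmr6 replicate 2, -0.33 without pmr5 replicate 2 and -0.21 without pmr5 pmr6 replicate 3.

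For lower member 5 the difference against Col-0 of -0.59 was -0.32 without pmr6 replicate 2. Its difference against pmr5 of -0.52 was -0.21 without pmr5 pmr6 replicate 1 and -0.22 once pmr5 replicate 3 was left out, and it was -0.85 without the arrays with a raised dim end. For lower member 6 the difference against Col-0 of -0.57 was -0.26 without pmr6 replicate 3. Its difference against pmr5 of -0.50 was -0.33 without pmr5 pmr6 replicate 3 and -0.62 without either pmr5 replicate 3 or pmr5 pmr6 replicate 2.

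Counted over whole groups, 16 of the 75 higher members had all 6 arrays with pmr6 above all 6 without it, where 0.813% of the 13659 rows of sufficient intensity did. Of the lower members 15 had all 6 below, against 0.439% of those rows. The rule chose for this contrast, so the counts describe the members and test nothing. Without pmr5 replicate 1 and pmr5 pmr6 replicate 3 there were 28 and 21 such members, beside 1.23% and 1.24% of those rows, over 10 arrays. That setting was added once the raised dim ends had been seen.

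The members with separated groups were the brighter and less variable ones. In the higher group their median of the mean intensity was 1236, against 229.6 for the members that overlapped, and the median SD within genotypes was 0.12 against 0.27 on the log2 scale. In the lower group the medians were 314 against 203 in intensity and 0.14 against 0.24 in SD. Among members with differences of similar size, a smaller SD within genotypes itself favours groups that lie apart, so the SDs describe the same property and are no separate result.

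**Figure D3:**
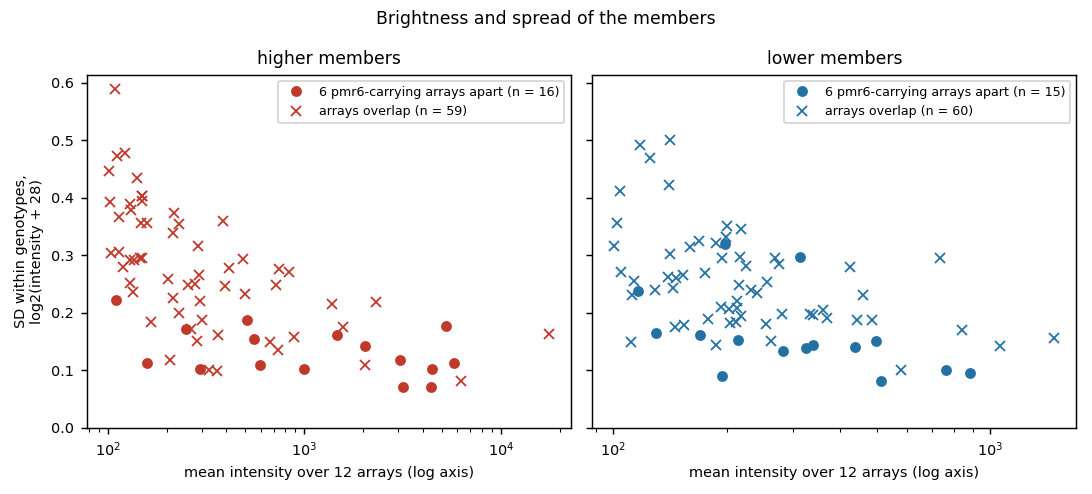
Mean intensity over the 12 arrays (x axis, log scale) and SD within genotypes in log2(intensity + 28) (y axis) of the 75 higher members (red) and 75 lower members (blue). Circles are members whose 6 arrays with pmr6 lie apart from the other 6 (16 higher, 15 lower), crosses the members that overlap, which gather at low intensity and high SD.

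Members were dim and variable beside the rows they were drawn from. The median SD within genotypes was 0.24 in the higher and 0.23 in the lower group, against 0.14 over the 7560 rows past both limits. The median of the mean intensity was 285 in the higher group and 213 in the lower group, against 517. A ranking by observed differences can itself favour rows with a large spread, so these values are no separate trait of the members. In the higher group 15 members had a mean intensity over 1000 and 26 one under 200, and in the lower group 2 and 33 did. The brightest member, higher member 74 (row 21343), had a mean intensity of 17497 and differences of 0.26 and 0.27 (SE 0.11).

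The linear model fitted over 17059 probe sets with limma gives the size of these differences against their error. The median SE of a pmr6 difference was 0.18 in both groups, and 35 higher and 35 lower members were at least 2 SE from 0 in both backgrounds. Over all probe sets tested, 2.82% were at least 2 SE higher in both and 2.34% at least 2 SE lower in both. The rule ranked the members by these same differences, so the counts describe them and nothing is read from the gap to these shares.

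At an adjusted p under 0.05 (limma, Benjamini-Hochberg over all 17059), 14 of the 75 higher members were called higher in pmr6 against Col-0, where 2.15% of all probe sets were. In pmr5 pmr6 against pmr5, 15 were called, beside 1.86% of all probe sets, and 13 were called in both, beside 0.926%. Of the lower members 5 were called lower in each comparison, beside 1.25% and 1.34%, and 2 in both, beside 0.322%. The rule used these contrasts, so nothing is read from the counts, except that most members did not pass the test of either comparison.

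The lower members called in both comparisons were lower member 2 and lower member 12 (row 12592), which is named here after its values were seen. Lower member 12 was the brightest of the lower group, at 1739, 1825 and 1871 in Col-0, 1381, 1878 and 1519.9 in pmr5, 1174, 1449 and 1410.4 in pmr6, and 1045, 1238 and 1218 in pmr5 pmr6. Its lowest pmr5 array lay below 2 of the pmr6 arrays. Both differences were -0.43 (SE 0.11), or 1.35-fold lower.

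Across the arrays the median levels of both groups followed the genotypes. The members were chosen on these same arrays, so the medians are a description and test nothing. The level of a higher member relative to its own mean had a median between -0.26 and -0.22 on the 3 Col-0 arrays, between -0.21 and -0.08 on the pmr5 arrays, between 0.10 and 0.20 on the pmr6 arrays, and between 0.20 and 0.30 on the pmr5 pmr6 arrays. For the lower members the medians were 0.21 to 0.26 in Col-0, 0.13 to 0.23 in pmr5, -0.17 to -0.12 in pmr6 and -0.23 to -0.20 in pmr5 pmr6. No array of a genotype with pmr6 had a median on the side of those without it.

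**Figure D4:**
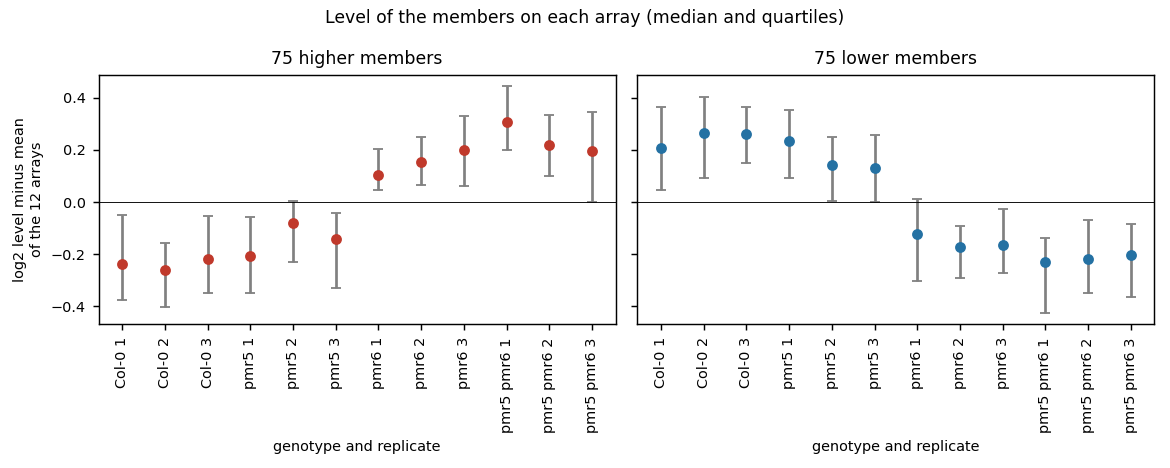
Median over 75 members (points) and quartiles (bars) of the log2(intensity + 28) level minus the mean of the 12 arrays, for each array by genotype and replicate. The medians of the higher members (red) run from -0.26 to 0.30 and those of the lower members (blue) from -0.23 to 0.26, with the arrays without and with pmr6 on opposite sides of 0. The members were chosen on these same arrays.

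Within the 2 limits the pmr5 differences of the members were not centred on 0. The pmr5 minus Col-0 difference had a median of 0.07 in the higher and -0.04 in the lower group, and pmr5 pmr6 minus pmr6 of 0.10 and -0.06. Log2 medians of whole arrays were higher with pmr5, at 7.68 to 7.76 in pmr5 and 7.62 to 7.67 in Col-0. They were 7.68 to 7.77 in pmr5 pmr6 and 7.63 to 7.66 in pmr6. The medians of the higher members had the sign of this shift and those of the lower members the opposite sign. The part of this shift in the medians of the members was not tested. In 45 of the 75 higher members the genotype means stood in the order Col-0, pmr5, pmr6, pmr5 pmr6 from low to high, and in 45 of the 75 lower members in the same order from high to low. Among the rows past both limits with both pmr6 differences in the same direction, 24.1% of 1942 and 25.3% of 2781 had these orders. The limits and the score together put pmr5 on the Col-0 side of pmr6 in every member, so the shares are not on an equal footing and nothing is read from them. The pmr5 difference itself passed the test in 1 member, higher member 56 (row 19913), beside 4.19% of all probe sets called higher and 3.89% called lower. In higher member 50 (row 21801) the pmr5 pmr6 minus pmr6 difference passed, beside 4.13% called higher and 4.13% called lower. The limits used these differences, so nothing is read from the counts.

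Both of these, named after their values were seen, were bright and had a small spread. Higher member 56 stood at 2642, 2257 and 2514 in Col-0, 2934.5, 2885 and 2972 in pmr5, 3800.4, 3471 and 3779.6 in pmr6, and 3612.5, 3625 and 3478 in pmr5 pmr6. The arrays of pmr5 lay above those of Col-0 and below all arrays with pmr6. Its differences were 0.57 for pmr6 against Col-0, 0.28 for pmr5 pmr6 against pmr5 and 0.25 for pmr5 against Col-0 (SE 0.07 each).

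Higher member 50 stood at 5533, 4738 and 5168 in Col-0, 6452, 6224 and 5581 in pmr5, 6367, 6160.1 and 6365 in pmr6, and 7490.4, 7694.5 and 7289 in pmr5 pmr6. Its pmr5 and pmr6 arrays overlapped, with Col-0 below both and the double mutant above both. Its pmr6 differences were 0.29 and 0.30 and its pmr5 differences 0.24 and 0.25 (SE 0.08 each), so it lay at the edge of the limits.

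The limits on the pmr5 differences bound the gap between the 2 pmr6 differences of a member. They do not require a similar size. The difference in the pmr5 background was the larger in size in 45 higher and 37 lower members. The 2 differences of a member were more than 0.25 apart in 4 higher and 2 lower members, by at most 0.41 and 0.29. Higher member 4, described above, had the widest gap.

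Within the 3 hybridization runs, each with 1 array per genotype, the median pmr6 minus Col-0 difference of the higher members was 0.35, 0.43 and 0.40, and the median pmr5 pmr6 minus pmr5 difference was 0.53, 0.31 and 0.30. For the lower members the medians were -0.31, -0.48 and -0.40, and -0.48, -0.35 and -0.41. All 6 of these run differences had the member's own direction in 42 higher and 45 lower members, beside 3.48% and 5.49% of the 7560 rows past both limits. The rule used these arrays, so the within-run values are a description too.

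To read the pattern in arrays that the choice had not used, the rule was applied to 2 of the 3 replicate numbers and the chosen probe sets were read in the third. With 1 array per genotype in the third there is no test. The differences shrank in every case. Probe sets chosen as higher had a median pmr6 minus Col-0 difference of 0.39 in the choosing arrays each time, and of 0.04, 0.26 and 0.11 in held-out replicate 1, 2 and 3. Their pmr5 pmr6 minus pmr5 medians went from 0.39, 0.47 and 0.45 to 0.15, 0.23 and 0.09.

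Probe sets chosen as lower had median pmr6 minus Col-0 differences of -0.42, -0.40 and -0.39 in the choosing arrays and of -0.06, -0.20 and -0.24 in the held-out replicates. Against pmr5 the medians went from -0.40, -0.40 and -0.38 to -0.24, -0.16 and -0.15. Every held-out median of these choices, most of which were not members, kept its direction. Over all rows past both limits the medians in the same arrays lay between -0.05 and 0.00.

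Both pmr6 differences of the held-out replicate were positive in 32, 47 and 31 of the 75 probe sets chosen as higher, beside 25%, 25.7% and 20.6% of all rows past both limits in the choosing arrays. Both were negative in 32, 41 and 45 of those chosen as lower, beside 27.1%, 30.6% and 31.3%. In all, 228 of 450 choices, or 50.7%, kept the direction in both backgrounds. The choices overlap, as 24 probe sets were chosen as higher and 22 as lower in at least 2 of the 3 repeats. Each array also served for choosing in 2 repeats, so the 450 are not independent and the total is a description. The 2 differences share no array, but all probe sets of a replicate share the same 4 arrays. The fluidics modules were the same in every replicate, so the held-out values cannot tell module and genotype apart.

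The pmr5 differences of the chosen probe sets in the held-out arrays, each between single arrays, lay both under 0.25 in size in 17, 22 and 20 of the 75 chosen as higher and in 17, 24 and 21 of the 75 chosen as lower. Of all rows past both limits in the choosing arrays, 48.7%, 57.3% and 46.9% did so in the same held-out arrays. The median size of the pmr5 minus Col-0 difference there was between 0.22 and 0.31 for the higher and between 0.21 and 0.27 for the lower choices, beside 0.18, 0.14 and 0.16 over all those rows. Members chosen on all arrays were more variable within genotypes than the rows past both limits, and spread was not matched here. These shares and sizes are thus not on an equal footing.

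**Figure D5:**
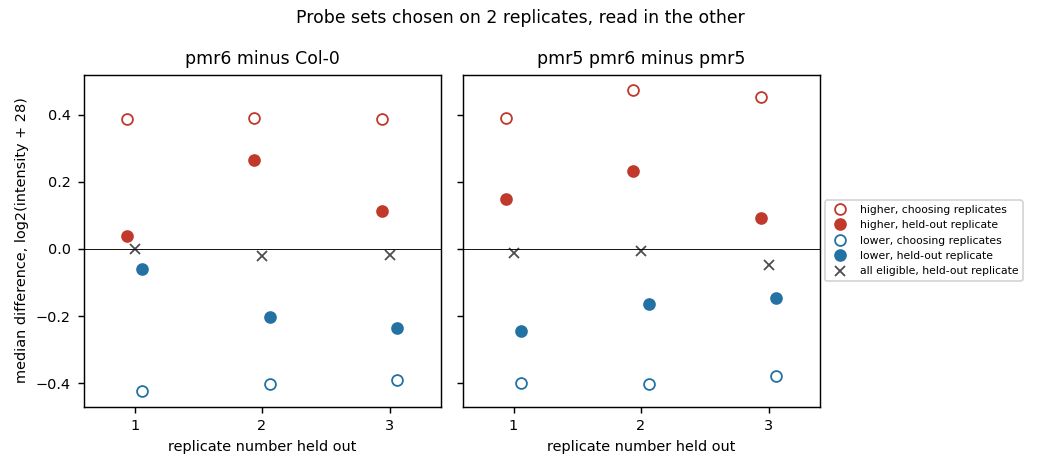
Median difference in log2(intensity + 28) of the 75 probe sets chosen on 2 replicate numbers (open circles) and of the same probe sets in the held-out replicate number (filled circles), for pmr6 minus Col-0 (left) and pmr5 pmr6 minus pmr5 (right), with the replicate held out on the x axis. Crosses are the median of all rows past both limits in the held-out arrays. Every filled circle lies between its open circle and 0, from 0.04 to 0.26 for the higher choices (red) and from -0.24 to -0.06 for the lower choices (blue).

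Few members were chosen again on fewer arrays. Without replicate 1, 2 or 3 the rule kept 23, 25 and 25 of the 75 higher members and 24, 27 and 27 of the lower ones. Of the higher members 26 were chosen in none of the 3 repeats, and of the lower members 15. Chosen in all 3 were 2 higher members, 11 and 21, and 0 lower members.

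Those 2, named after this count was seen, showed separated groups. Higher member 11 (row 7302) stood at 481, 417 and 495 in Col-0, 503, 564 and 458.5 in pmr5, 666, 642 and 675 in pmr6, and 811, 698 and 736 in pmr5 pmr6. The differences were 0.49 and 0.54 (SE 0.11). Every array with pmr6 lay above every array without it.

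Higher member 21 (row 5311) stood at 4971.5, 4784.5 and 4885 in Col-0, 4388, 5679.5 and 4453 in pmr5, 5989, 6465 and 6546 in pmr6, and 6831, 7202 and 6775.5 in pmr5 pmr6. The highest array without pmr6, pmr5 replicate 2, lay below the lowest with it. The differences were 0.37 against Col-0 and 0.53 against pmr5 (SE 0.09), or 1.30-fold and 1.44-fold.

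No members of a group lay in directly neighbouring rows. Higher members lay between rows 68 and 22402 and lower members between rows 186 and 22352, and the closest members of a group were 5 rows apart in the higher and 17 in the lower group. After the genotype means were taken off, the levels of 2 higher members correlated over the 12 arrays at a mean of 0.05 across 2775 pairs, and those of 2 lower members at 0.01. These pairs share the same 12 arrays. A correlation over 0.9 was seen in 6 higher and 3 lower pairs. Single pairs ran from -0.88 to 0.97 in the higher and from -0.88 to 0.91 in the lower group. The same values were not computed over other rows. A mean over all pairs cannot show whether smaller sets of members varied together.

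The same rule turned to pmr5, which asks for small pmr6 differences, had larger scores at the same ranks. With 8770 rows past its limits, against 7560 for pmr6, equal ranks are not on an equal footing. Its higher scores at ranks 1, 10 and 75 were 2.25, 0.71 and 0.42, against 0.81, 0.52 and 0.26 for pmr6. On the lower side they were -0.66, -0.51 and -0.34, against -0.62, -0.44 and -0.30. The difference between the 2 sets of scores was not tested.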

How the data were processed

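The authors deposited 1 linear intensity per probe set and array, scaled so that the mean without the highest and lowest 2% of rows was 500 on every array, as read from the values; the sources used here do not give the summarising software, and the table has no detection calls, so the number of arrays limits the precision. The per-array instrument records, deposited as text of other kinds (module, hybridization time), were used for runs, with arrays at most 30 minutes apart taken as 1 run. Replicates are those of the labels.

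Array medians differed by at most 0.15 log2, under the 0.2 set for further normalization, so none was applied. Rows with AFFX identifiers (64) and the dimmest 25% by mean level were left out of the fit, which kept 17059. limma 3.58.1 in R 4.3.3 fitted 4 genotype means to log2(intensity + 28) with an intensity trend and no block; the same code was tested on simulated data. Selection, held-out reading and figures used Python 3.11.15 with matplotlib 3.10.9. The members, lists and tests were chosen with earlier results of these data known. The text names the 10 highest-ranked members per direction and gives the values of the 3 rows nearest each limit of the rule; higher members 11, 21, 50, 56 and 74 and lower member 12 were added after their values were seen; gene lists, markers and promoter motifs were not used and no identifier is printed, because the row order was not proven. Same-numbered arrays shared a run, and their deviations from the genotype means correlated between -0.07 and 0.08.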

Additional observations from a re-analysis of the deposited data

How the results depend on the processing

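The direction of the median pmr6 differences was set by the choice of the members on these arrays, so only their size is given. With a pseudocount of 100 the median against Col-0 of the higher members was 0.26 and that against pmr5 of the lower members -0.31, as a larger pseudocount compresses differences. Leaving out 1 array at a time gave medians against Col-0 of 0.34 to 0.40 (higher) and -0.43 to -0.37 (lower), and against pmr5 of 0.35 to 0.40 and -0.42 to -0.37, where leaving out an array of the other 2 genotypes repeats the value. Which probe sets were members depended on the settings. Of the 150, the rule kept 99 with a pseudocount of 100, 88 and 91 with a minimum intensity of 50 and 200, 79 and 88 with limits of 0.15 and 0.35, 106 with quantile normalization, 139 with a pseudocount of 16, 74 without pmr5 replicate 1 and pmr5 pmr6 replicate 3 (an alternative chosen after seeing the data), 88 to 110 without 1 array, the lowest without Col-0 replicate 1, and 47 to 52 without 1 replicate number; the cause was not tested. The 26 members followed were the 10 highest-ranked per direction, higher members 11, 21, 29, 50 and 56, and lower member 12. Higher member 74 was not followed. Of their values under an alternative, 494 differed from that of the main setting. Of these values, 29 from 9 members were over 1.5 times away, 26 of them smaller in size.

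In limma, pmr6 against Col-0, pmr5 pmr6 against pmr5, pmr5 against Col-0 and pmr5 pmr6 against pmr6 gave 579, 546, 1378 and 1409 calls, and without the variance trend 211, 140, 645 and 677; the cause was not tested. Without 1 array they ran from 337 to 640, 264 to 602, 784 to 1458 and 774 to 1495, lowest without pmr6 replicate 2, pmr5 pmr6 replicate 1, pmr5 replicate 1 and pmr6 replicate 3. Other arrays that moved a count by over 1.5 times were Col-0 replicate 3 (358) and pmr6 replicate 1 (369) in the first, pmr5 replicate 3 (269) and pmr5 pmr6 replicate 2 (341) in the second, Col-0 replicate 3 (900) in the third, and pmr5 pmr6 replicates 1 and 2 (817 and 937) in the fourth. Without both arrays with a raised dim end pmr5 against Col-0 gave 888. With the replicate block the counts were 637, 612, 1462 and 1475. The held-out count of 228 was 219 to 250 in 3 alternatives. For the identifiers, r was 0.06 as deposited, 0.16 displaced by 64 rows, at most 0.42 over all displacements and at most 0.21 in 4 other orders chosen after seeing the data.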
